A study of Solanum lycopersicum with 6 samples.

Results

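The genes described here are 8 loci that set the size and shape of the tomato fruit, out of 40229 gene models in a table of transcript levels from Solanum lycopersicum fruit. They were chosen by identifier, without use of measured values, and all 8 were found in the table. The set holds FW2.2, WUS, CLV3, OVATE, SUN, KLUH (the gene of FW3.2), CSR (the gene of FW11.3) and YABBY2. The samples were fruit of the dwarf cultivar Micro-Tom, labelled 25 days after anthesis in both groups, in 3 wild-type libraries and 3 libraries labelled SlLBD40-KO, in which the LATERAL ORGAN BOUNDARIES domain gene SlLBD40 was knocked out. The labels do not give the edit, the number of plant lines or whether fruit were pooled, and they give no gene identifier for SlLBD40, so its own transcript was not used here to check the genotype. The 3 wild-type samples are labelled with sequencing lane 2 and 2 of the knockout samples with lane 3, with no lane given for the other, so lane and genotype cannot be told apart. Table columns were matched to genotype by a prefix shared with the sample titles, PB for wild type and Br for the knockout. The labels do not explain these prefixes, and whatever they mark cannot be told apart from genotype. Each column also carries a number from 1 to 3, which is used below to name a library and pairs nothing.

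The table's own descriptions were set against the names. They read "fruit weight 2.2" for FW2.2 (Solyc02g090730), "wuschel" for WUS (Solyc02g083950), "ovate" for OVATE (Solyc02g085500) and "SUN-like protein 1" for SUN (Solyc10g079240). Solyc11g071380 is described as a CLAVATA3 protein and Solyc11g071940, taken as CSR, as a FAF-like protein. Solyc03g114940, taken as KLUH, is described as a cytochrome P450 with no further name, so its description gives the enzyme class and not the gene. Solyc11g071810, taken as YABBY2, is described as "fasciated", whereas the RefSeq gene table of assembly SLM_r2.1 gives FAS as another name of CLV3. That table holds 6 of the 8 names as symbols, KLUH and CSR being the exceptions, and places each on the chromosome that its identifier carries in the files. By those identifiers FW2.2, WUS and OVATE lie on chromosome 2, KLUH on chromosome 3, SUN on chromosome 10 and CLV3, YABBY2 and CSR on chromosome 11.

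Tomato fruit size and shape are largely laid down in the floral meristem and the ovary, before and soon after the flower opens. WUS maintains the stem cells of the meristem and CLV3 is the secreted peptide that restrains it, and a weaker brake gives more carpels and so more locules. FW2.2 restrains cell division in the carpel, KLUH is a cytochrome P450 that raises the number of cell layers in the pericarp, and CSR raises cell size. OVATE and SUN act on the direction of growth, OVATE as a repressor of elongation and SUN, a calmodulin-binding IQ domain protein, as a promoter of it. YABBY genes encode transcription factors of lateral organs, and the fasciated mutation that raises locule number is an inversion between CLV3 and YABBY2.

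Only YABBY2, OVATE and SUN were read at an appreciable level in these fruit, and 0 of the 8 genes was shown to differ between the genotypes. Levels are in TPM, a share of all transcripts that is scaled to gene length, so they can be ordered between genes. WUS, CLV3 and CSR were listed at 0 in all 6 libraries. FW2.2 was listed at 0 in 5 libraries and at 0.14 TPM in knockout 2. KLUH reached 0.52 TPM in wild type 1, read 0.03 TPM in knockout 2 and was listed at 0 in the other 4 libraries. The depth of the libraries is unknown, and a value of 0 in such a table can be a failed estimate, so these values are given by library with no fold change. Of the 8 genes, 3 reached 1 TPM in at least 3 libraries, the filter for testing, as did 45.7% of the table.

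**Figure D1:**
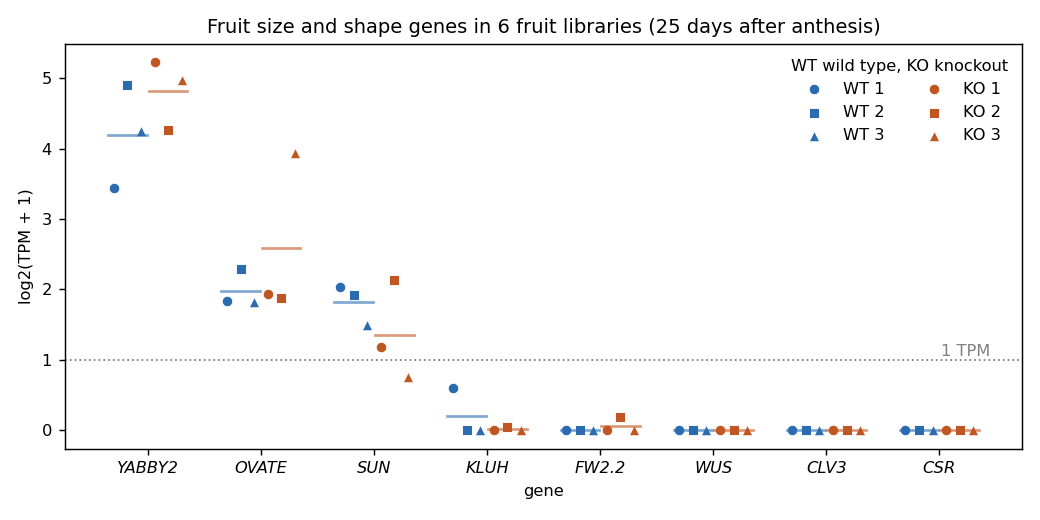
Level of each of the 8 genes as log2(TPM + 1) in the 3 wild-type (WT, blue) and 3 knockout (KO, orange) libraries, with symbols for the library number, short lines for the genotype means and a dotted line at 1 TPM. YABBY2 lies above OVATE and SUN in every library, knockout 3 stands apart from the others for OVATE at 14.3 TPM, and 5 genes stay at or near 0.

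The order of the mean levels over all 6 libraries was YABBY2 at 23.6 TPM, OVATE at 4.81 TPM, SUN at 2.18 TPM, KLUH at 0.0917 TPM and FW2.2 at 0.0233 TPM, followed by the 3 genes listed at 0. YABBY2 was above OVATE in 6 of 6 libraries, by 2.22 ± 0.79 on the log2(TPM + 1) scale (SD over libraries; two-sided exact permutation test within libraries, p = 0.0312, the smallest that 6 libraries allow, adjusted p = 0.0625 over the 2 neighbouring pairs among tested genes, n = 6). That difference did not pass an adjusted p of 0.05, which 6 libraries allow only if both pairs reach the smallest p. The adjusted p thus could not decide this pair by itself. The pairs were also set by the mean levels in the same libraries. OVATE and SUN were not separated, with OVATE higher in 4 of 6 libraries by 0.70 ± 1.27 (exact permutation p = 0.188, adjusted p = 0.188, n = 6). In knockout 3 YABBY2 stood above 88.1% of all gene models, OVATE above 79.8% and SUN above 54.9%. In wild type 1 these shares were 72.6%, 60.0% and 61.4%.

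YABBY2 stood at 9.88, 28.8 and 18.1 TPM in the wild-type libraries 1 to 3, and knockout libraries 1 to 3 read 36.4, 18.2 and 30.3 TPM. The lowest library was a wild type and the highest a knockout, but wild type 2 lay among the knockout values and the groups overlapped. The means were 18.9 ± 9.48 TPM for wild type against 28.3 ± 9.25 TPM for the knockout (SD, n = 3), which gives a log2 fold change of 0.62 with an SE of 0.44 and a 95% interval from −0.40 to 1.64 (limma adjusted p = 0.518). The interval runs from 0.756 to 3.13 times the wild-type level on the TPM + 1 scale. Wild type 1 and knockout 1, the pair of libraries with the most seed transcripts, also held the lowest and highest YABBY2 values, with summed levels of 47 seed genes of 4730 and 4930 TPM against 163 to 479 TPM elsewhere. Without this pair the log2 fold change was 0.040 (limma adjusted p = 0.983), and without wild type 1 alone it was 0.24. Leaving out the lowest wild-type and the highest knockout value lowers the difference whatever their seed content. The part of seed transcripts in the YABBY2 values was not tested.

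OVATE stood at 2.58, 3.88 and 2.54 TPM in the wild-type libraries, against 2.84, 2.68 and 14.3 TPM in the knockout ones. Knockout 1 and 2 lay within the wild-type range, and knockout 3 was higher than every other library. The means were 3.0 ± 0.762 and 6.61 ± 6.67 TPM (SD, n = 3), which gives a log2 fold change of 0.60 with an SE of 0.58 and a 95% interval from −0.76 to 1.96 (limma adjusted p = 0.650). The sign rested on knockout 3, without which the log2 fold change was −0.073 (adjusted p = 0.927). Within the knockout the highest OVATE value was 5.34 times the lowest, against 1.53 times in wild type, and the spread of OVATE within genotypes was wider than that of 86.4% of all genes tested.

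Ripening genes were also highest in knockout 3. RIN (Solyc05g012020), a MADS-box regulator that starts ripening, stood at 1.53, 19.7 and 8.14 TPM over the 3 wild-type libraries, next to 27.3, 20.9 and 112.7 TPM in knockout fruit. A polygalacturonase gene (Solyc10g080210), of the enzymes that cut pectin as fruit soften, stood at 0.04, 50.4 and 48.7 TPM for wild type, compared with 107.5, 10.8 and 367 TPM for the knockout. E8 (Solyc09g089580), an ethylene-responsive gene described as a 2-oxoglutarate-dependent oxygenase, ran from 449 TPM in knockout 2 to 6454 TPM in knockout 3. RIN, the polygalacturonase and E8 thus shared their highest library with OVATE, but TAGL1 did not. Wild type 1 was lowest for RIN and the polygalacturonase, knockout 2 for E8 and wild type 3 for OVATE. The part of ripening in the OVATE value was not tested.

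**Figure D2:**
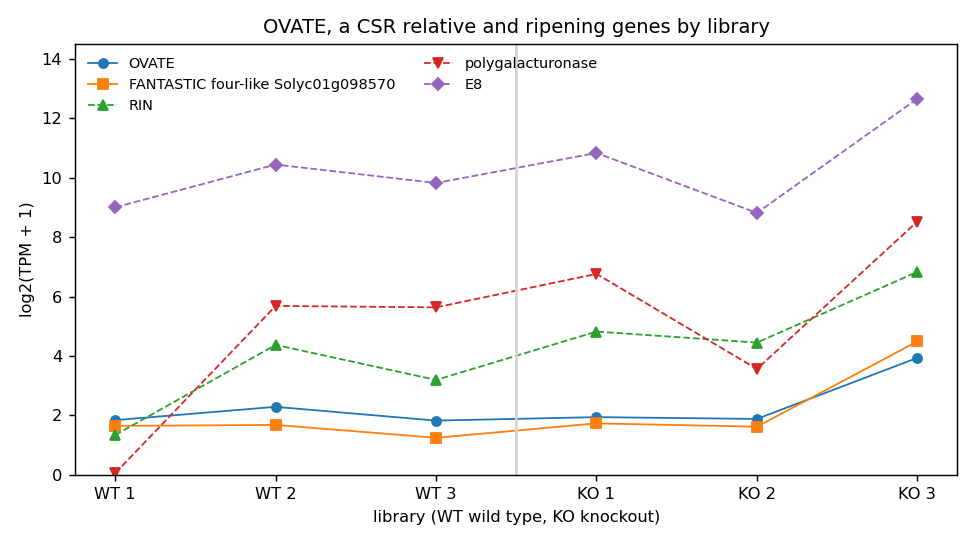
Levels as log2(TPM + 1) of OVATE, the FANTASTIC four-like gene Solyc01g098570 and the ripening genes RIN, polygalacturonase and E8 in each library, with lines that only join the points of a gene. All 5 genes are highest in knockout 3, where OVATE stands at 14.3 TPM and the FANTASTIC four-like gene at 21.5 TPM, and the ripening genes also vary among the other 5 libraries.

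SUN stood at 3.09, 2.79 and 1.83 TPM in the wild-type libraries, against 1.27, 3.39 and 0.69 TPM in the knockout ones. The highest and the lowest value of all 6 libraries both came from knockouts, so the groups overlapped. The means were 2.57 ± 0.658 and 1.78 ± 1.42 TPM (SD, n = 3), which gives a log2 fold change of −0.46 with an SE of 0.42 and a 95% interval from −1.45 to 0.52 (limma adjusted p = 0.628). The log2 fold change kept its sign in each of the 11 alternatives in which it was tested, between −0.85 without knockout 2 and −0.16 without knockout 3.

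Across the whole table limma called 17 of 18368 genes, 0.0926%, at an adjusted p under 0.05, and 0 of the 3 tested size and shape genes was among them or had an unadjusted p under 0.05, which 17.5% of all genes had. The count of 17 fell to 9, 11 and 3 without knockout 2, wild type 1 and wild type 2, and to 0 without knockout 1 or without wild type 3, where limma left 2061 and 2333 genes with an unadjusted p under 0.05. Without knockout 3 it was 23. Every knockout library was above every wild-type library for 8.26% of genes and below for 16.1%, and for 0 of these 3. The intervals show that changes of up to 3.90-fold upward for OVATE and 3.13-fold upward for YABBY2, or a fall of SUN to 0.367 of its wild-type level, on the TPM + 1 scale, are not excluded by these libraries. In bulk tissue fewer cells of a type and less transcript per cell cannot be told apart.

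The relatives of the 8 genes were then read from the table's descriptions, 116 genes beside the members, of which 45 were tested. Of these 45, limma called 0 in either direction, against 0.0926% of all genes tested. An unadjusted p under 0.05 was found for 6 of them, against 17.5% of all genes, so neither count stands above the background. A higher or lower mean below is that of log2(TPM + 1). The groups did not overlap for 8 of the 45, 1 with the knockout above and 7 with it below, or 17.8% against 24.4% of all genes tested. Their median log2 fold change was −0.23, against −0.087 over all genes. Median-ratio scaling of the libraries moved the median of all genes by 0.10, from −0.087 to 0.015. The medians of the FW2.2-like and SUN families are therefore also given relative to it.

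**Figure D3:**
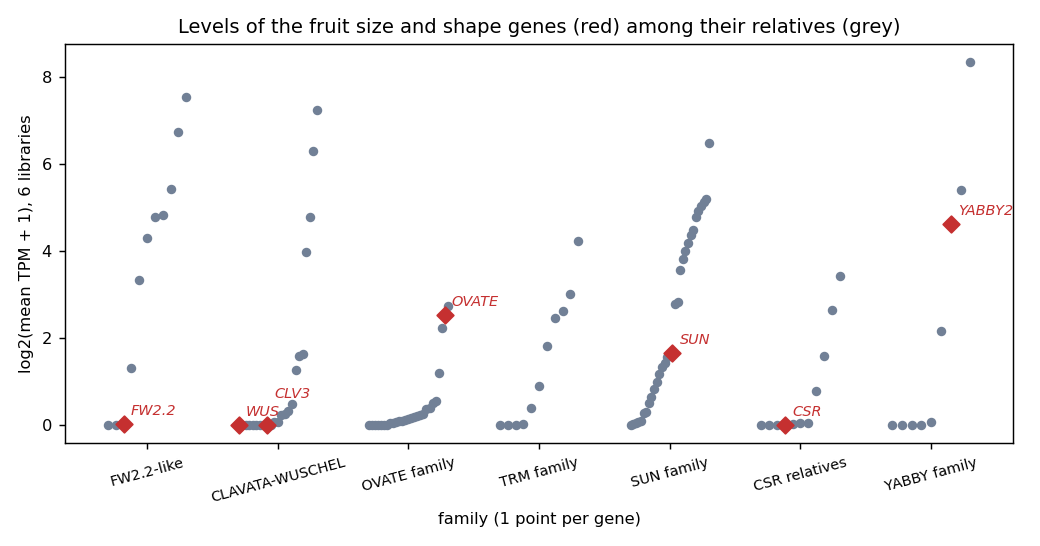
Mean level over the 6 libraries, as log2(mean TPM + 1), of every gene in the 7 families, 1 point per gene and sorted within its family, with the size and shape genes as red diamonds. FW2.2, WUS, CLV3 and CSR lie at the foot of families that have members above 9 TPM, whereas OVATE ranks 2 and YABBY2 ranks 3 in theirs.

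The FW2.2-like family, cysteine-rich membrane proteins known as cell number regulators in maize, held 11 genes by description. FW2.2 ranked 9 of 11 by mean level, above only the 2 relatives listed at 0 in all libraries, while 8 relatives were tested. A cell number regulator 8 gene (Solyc09g007490) had the highest level, with 225, 213 and 197 TPM over the 3 wild-type libraries, next to 166, 159 and 166 TPM in knockout fruit. A PLAC8 family gene (Solyc12g056210) stood at 128, 148 and 128 TPM for wild type, compared with 81.0, 90.7 and 62.0 TPM for the knockout. For both, every knockout library lay below every wild-type one, but neither passed the test over all genes, with log2 fold changes of −0.37 (SE 0.19, limma adjusted p = 0.374) and −0.80 (SE 0.23, limma adjusted p = 0.150).

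A cell number regulator 6 gene (Solyc05g051690) also had non-overlapping groups, with 26.0, 18.9 and 25.0 TPM in the wild-type libraries, against 13.1, 12.8 and 17.0 TPM in the knockout ones (log2 fold change −0.67, SE 0.26, limma adjusted p = 0.245). Another cell number regulator 6 gene (Solyc03g093200) overlapped, at 47.3 ± 5.45 TPM for wild type against 36.9 ± 6.27 TPM for the knockout (SD, n = 3; limma adjusted p = 0.488). Of the 8 tested relatives, 6 had a lower and 2 a higher mean in the knockout, and 0 was called, against 0.0926% of all genes tested. The family median was −0.34, or −0.25 relative to all genes under either scaling, and the groups lay apart for 3 of the 8, against 24.4% of all genes tested. After median-ratio scaling they lay apart for 2 of the 8, or 25.0%, next to 25.4% of all genes. Genes described as cyclin, histone H4, MCM or PCNA were taken to mark dividing tissue. Of the 19 tested, most of them histone H4 genes, 16 had a lower and 3 a higher mean in the knockout. In all, 8 lay wholly below against 16.1% of all genes, and 10 had an unadjusted p under 0.05 against 17.5%, with 0 called. Another 20 genes of the list were not tested, 17 of them under 1 TPM in every library. The summed level of all 39 genes of that list ran 1110 to 2554 TPM over wild-type libraries and 994 to 1434 TPM over knockout libraries. The part of dividing tissue in the levels of the FW2.2-like genes was not tested.

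Of the CLAVATA and WUSCHEL pathway, 23 genes were listed and 6 tested, while 10 were listed at 0 in all libraries, WUS and CLV3 among them. The gene with the highest level was WUSCHEL-related homeobox 13 (Solyc02g082670), at 96.5, 176 and 279 TPM over the 3 wild-type libraries, next to 78.3, 89.3 and 192 TPM in knockout fruit. It belongs to the homeobox family of WUS, which was listed at 0 in the same libraries. A receptor kinase gene described as CLAVATA1 (Solyc02g091840), of the class that binds CLV3-type peptides, stood at 88.1 ± 36.2 TPM for wild type against 67.2 ± 18.8 TPM for the knockout (SD, n = 3). Solyc11g064850, taken as the hydroxyproline arabinosyltransferase gene FIN, whose enzyme adds sugars to CLE peptides, stood at 22.9 ± 2.96 and 30.4 ± 11.9 TPM. The kinase Solyc04g081590, taken as FAB, the tomato CLV1 orthologue, was low at 1.59 ± 1.17 and 2.60 ± 0.556 TPM.

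A CLE41-like peptide gene (Solyc09g061410), of a class known for work in vascular tissue in Arabidopsis, had the lowest unadjusted p of the pathway. It stood at 11.9, 8.26 and 13.0 TPM for wild type, compared with 15.5, 11.3 and 28.7 TPM for the knockout (log2 fold change 0.61, SE 0.39, limma adjusted p = 0.464). ENO (Solyc03g117230), an AP2/ERF factor that restrains WUS, was listed at 0 in all 6 libraries. Of the 6 tested genes 4 had a higher and 2 a lower mean in the knockout, under either scaling. Limma called 0 of them, against 0.0926% of all genes tested, and 0 were non-overlapping, against 24.4% of all genes. The 6 genes are too few to set these counts apart from those shares.

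In the YABBY family of 9 genes, 4 were tested and 4 listed at 0 throughout, and YABBY2 ranked 3 by mean level. Its relative with the highest level, described as CRABS CLAW-like protein 2a (Solyc06g073920), stood at 318, 319 and 337 TPM in the wild-type libraries, against 396, 222 and 362 TPM in the knockout ones. That gene was above YABBY2 in every library, and its genotype means of 325 ± 10.4 and 327 ± 92.5 TPM (SD, n = 3) gave a log2 fold change of −0.033 (SE 0.27, limma adjusted p = 0.969). CRABS CLAW-like protein 5a (Solyc07g008180) stood at 34.04, 88.4 and 34.1 TPM and at 23.7, 17.6 and 51.6 TPM, with overlapping groups. CRABS CLAW 1b (Solyc08g079100) was lower, at 4.15 ± 0.667 and 2.78 ± 1.38 TPM (limma adjusted p = 0.516). YABBY2 was the 1 tested member of the family with a higher mean log2 level in the knockout as deposited, and 2 of 4 had one after median-ratio scaling. Whether YABBY2 differed from its relatives in its response was not tested.

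The OVATE family was low in these fruit: of 27 genes, 3 were tested, OVATE among them, and 21 stayed under 1 TPM in every library. The highest mean over all libraries was that of ovate family protein 29 (Solyc11g006670), at 5.25, 6.82 and 4.26 TPM over the 3 wild-type libraries, next to 5.51, 8.67 and 3.38 TPM in knockout fruit (log2 fold change 0.034, SE 0.38, limma adjusted p = 0.977). Unlike OVATE, this gene was lowest in knockout 3. Ovate family protein 6 (Solyc03g034100) stood at 0.893 ± 0.307 and 1.69 ± 0.820 TPM (limma adjusted p = 0.525). Ovate family protein 14 (Solyc06g082460) reached 17.2 TPM in wild type 1 but 0.12 to 3.24 TPM elsewhere and was not tested. Ovate family protein 20 (Solyc10g076180), a gene known to modify the effect of the ovate allele on fruit shape, was at most 0.46 TPM.

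Wild type 1, where ovate family protein 14 was highest, was rich in seed transcripts, as was knockout 1, where that gene stood at 0.28 TPM. The summed level of 47 seed storage and oil body genes was 4730, 163 and 205 TPM for wild type, compared with 4930, 311 and 479 TPM for the knockout. The number of them at 1 TPM or more was 7 to 21 per wild-type library and 7 to 23 per knockout library. The 2S albumin gene (Solyc08g080490), a seed storage protein, stood at 2171 and 1675 TPM in these libraries, with 37.0 TPM in knockout 2 and at most 0.18 TPM in the other 3. Their part in the values above was not tested.

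OVATE acts in a complex with TRM proteins, which bind microtubules. TRM genes were read from names and from the DUF4378 domain, which not only TRM proteins carry, and 5 of the 11 genes so found were tested. A DUF4378 gene (Solyc04g077535) stood at 2.61, 14.03 and 10.1 TPM for wild type, compared with 0, 0 and 0.05 TPM for the knockout, so that the groups were far apart. It passed the filter only through the 3 wild-type libraries, where it was high, so its test gives no support for a difference. Its adjusted p was the lowest of all relatives, and it was not called (limma adjusted p = 0.0814). In 11 of the 12 alternatives 0 genes of this list were called. The exception, with 1 called, left out wild type 1. That library held the lowest wild-type value of Solyc04g077535, so leaving it out widens the gap between the groups. The other 3 named, all with a DUF3741 and a DUF4378 domain, overlapped between the genotypes. They were Solyc01g094640 at 18.9 ± 7.44 and 17.0 ± 8.61 TPM, Solyc09g005750 at 8.14 ± 3.65 and 6.14 ± 2.004 TPM and Solyc08g081160 at 5.77 ± 3.36 and 4.49 ± 2.76 TPM (SD, n = 3). LONGIFOLIA 1-like (Solyc03g115000), named for Arabidopsis genes that lengthen organs, ran from 1.29 to 3.85 TPM, with a higher mean in the knockout. LONGIFOLIA 1 (Solyc07g008670), not tested, stood at 2.08, 0.65 and 1.58 TPM for wild type, compared with 0.25, 0.58 and 0.1 TPM for the knockout. Another LONGIFOLIA 1-like gene (Solyc02g089050), also not tested, had means of 0.427 and 0.2 TPM. A LONGIFOLIA gene (Solyc02g089030) was listed at 0 throughout.

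The SUN family held the most tested genes of the 7 families, with 19 of 31 passing the filter and 1 listed at 0 throughout. SUN itself ranked 15 of 31 by mean level. SUN-like protein 17 (Solyc06g053450) had the highest level, at 64.8, 57.6 and 74.3 TPM in the wild-type libraries, against 147.5, 133.8 and 57.2 TPM in the knockout ones. Its values were high in knockout 1 and 2 and lowest in knockout 3 (log2 fold change 0.67, SE 0.38, limma adjusted p = 0.417). SUN-like protein 14 (Solyc04g081210) had the same order of knockout libraries, at 55.6, 46.5 and 17.0 TPM, against 26.6, 26.8 and 32.4 TPM in wild type. SUN-like protein 7 (Solyc02g087760) stood at 41.8 ± 13.7 and 29.8 ± 10.3 TPM (SD, n = 3).

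The groups of SUN-like proteins 15, 23 and 28 did not overlap, each lower in the knockout, and those of SUN-like protein 12 (Solyc04g016480) did not overlap with the knockout higher, at 3.58 to 6.26 TPM for wild type against 6.71 to 7.86 TPM for the knockout (limma adjusted p = 0.449). SUN-like protein 23 (Solyc08g080470) stood at 27.1, 13.8 and 14.51 TPM over the 3 wild-type libraries, next to 5.35, 12.8 and 4.95 TPM in knockout fruit (log2 fold change −1.21, SE 0.43, limma adjusted p = 0.217). SUN-like protein 28 (Solyc10g008790) stood at 18.2, 24.0 and 34.4 TPM and at 14.98, 12.5 and 14.7 TPM (log2 fold change −0.78, SE 0.30, limma adjusted p = 0.239). SUN-like protein 15 (Solyc05g007130) stood at 9.68, 5.68 and 8.07 TPM and at 4.78, 4.57 and 2.85 TPM (log2 fold change −0.79, SE 0.33, limma adjusted p = 0.270). SUN-like proteins 15, 23 and 28 were the 3 of 19 members with an unadjusted p under 0.05, which 17.5% of all genes had, and 0 was called. The groups lay apart for 4 of the 19, or 21.1%, below the 24.4% of all genes, so the family's counts lie near the background. Over the 19 genes, 11 had a lower and 8 a higher mean in the knockout under either scaling, with a median log2 fold change of −0.30, or −0.22 relative to all genes. The median was −0.023 without wild type 1, −0.028 without knockout 3 and −0.060 without both libraries numbered 1.

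**Figure D4:**
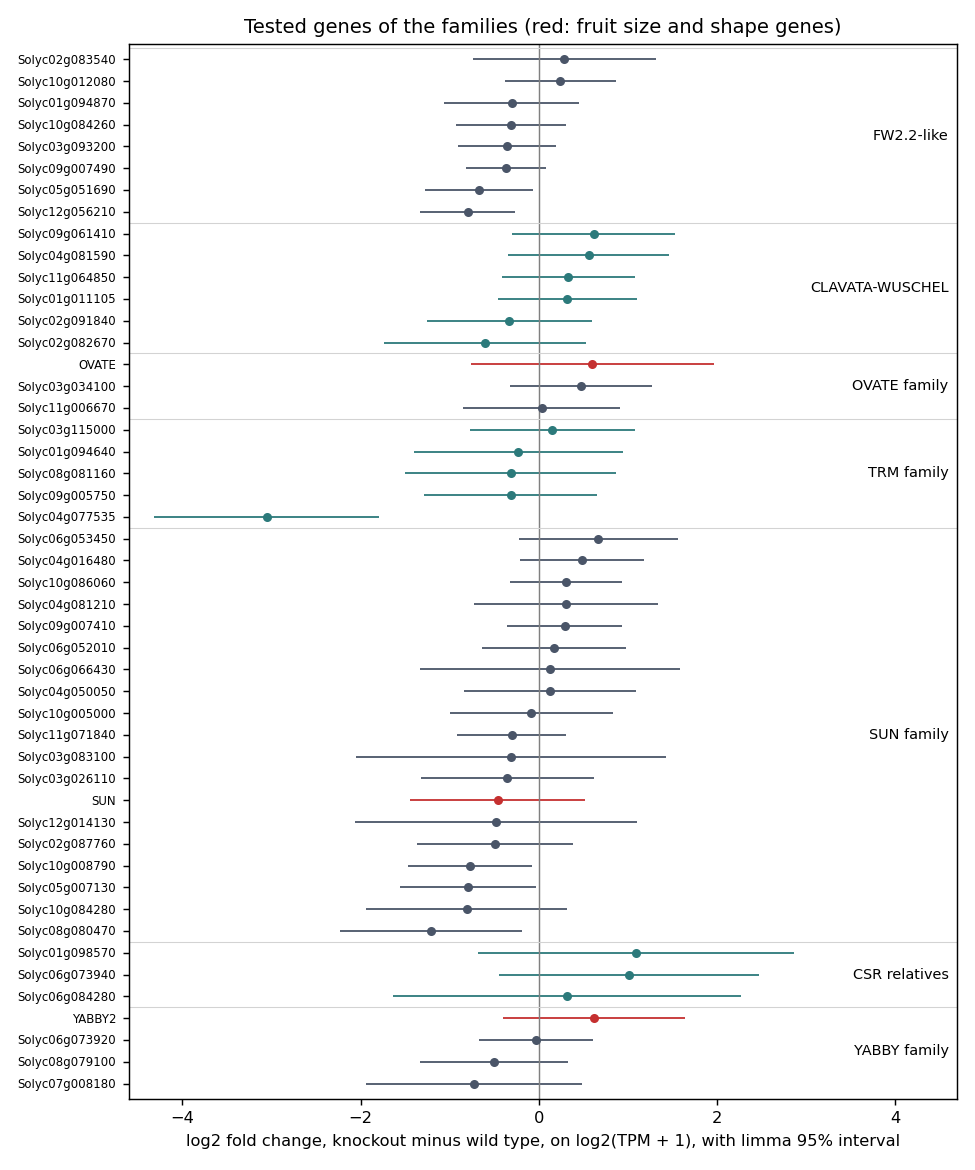
Log2 fold change of knockout against wild type on the log2(TPM + 1) scale, with limma 95% intervals, for every tested gene of the 7 families, the size and shape genes in red. The intervals of OVATE, SUN and YABBY2 cross 0, and the DUF4378 gene Solyc04g077535 lies farthest from 0, at −3.06.

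CSR belongs to the FANTASTIC four-like genes, named in Arabidopsis for regulators of shoot meristem size. Of 11 such genes, 3 were tested and 4, CSR included, were listed at 0 throughout. A FANTASTIC four-like gene (Solyc01g098570) stood at 2.13, 2.2 and 1.37 TPM for wild type, compared with 2.32, 2.07 and 21.5 TPM for the knockout. Like OVATE, it was high in knockout 3 alone and otherwise level (log2 fold change 1.09, SE 0.75, limma adjusted p = 0.511). A FAF-like gene (Solyc06g073940) was instead high in knockout 2, at 30.0 TPM against 3.09 to 7.66 TPM in the other libraries (limma adjusted p = 0.450). Solyc06g084280 stood at 0, 2.77 and 1.12 TPM in the wild-type libraries, against 0, 0.90 and 7.19 TPM in the knockout ones. Without knockout 3 the median log2 fold change of the 3 tested genes was 0.15, against 1.01 with all libraries. No description in the table named the CYP78A subfamily, to which KLUH belongs, so its relatives were not analysed here.

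The genes most like each tested member were sought among 13236 genes with an informative description and a mean of at least 5 TPM, or 13235 for YABBY2, which is itself one of them, by Pearson's r of log2(TPM + 1) over the 6 libraries. For OVATE the closest were a GATA transcription factor gene (Solyc05g053500, r = 0.999), a protein kinase gene (Solyc08g077560, r = 0.997) and a protein phosphatase 2C gene (Solyc05g052520, r = 0.996), and 65 candidates exceeded r = 0.95. All 3 share the single high library, the phosphatase gene with 149 TPM in knockout 3 and 4.90 to 8.57 TPM elsewhere. For SUN the closest were an FCS-like zinc finger gene (Solyc08g077480, r = 0.991), a gene described as a legume-specific protein (Solyc09g011190, r = 0.990) and a carbohydrate esterase gene (Solyc06g073240, r = 0.974). The zinc finger gene stood at 123, 115 and 80.6 TPM over the 3 wild-type libraries, next to 55.7, 118 and 39.8 TPM in knockout fruit.

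For YABBY2 the closest were an AMP-dependent synthetase gene (Solyc12g099360, r = 0.990), an RNF170-like ubiquitin ligase gene (Solyc01g103970, r = 0.989) and a DUF1677 gene (Solyc03g122300, r = 0.987). The synthetase gene stood at 97.0, 237 and 157 TPM for wild type, compared with 286, 183 and 243 TPM for the knockout, lowest in wild type 1 and highest in knockout 1 like YABBY2. The genes above r = 0.95 numbered 12 for SUN and 36 for YABBY2. The 6 points of each r share their libraries with every other gene, so these likenesses are descriptions.

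CLV3 and YABBY2, the genes at the ends of the fasciated inversion, enclose 40 table entries by identifier, a stretch examined after values had been seen. CLV3 was listed at 0 and YABBY2 at 9.88 to 36.4 TPM, and 26 of the 40 entries between them were tested. Of these limma called 0 and 1 had an unadjusted p under 0.05, against 0.0926% and 17.5% of all genes tested. That gene, a 60S ribosomal protein L30-like gene (Solyc11g071490), stood at 192, 218 and 189 TPM in the wild-type libraries, against 65.4, 80.8 and 106 TPM in the knockout ones (limma adjusted p = 0.0904). The knockout lay below wild type for 4 of the 26, near the 16.1% of all genes, and above for 0, against 8.26%, and the median log2 fold change was −0.040. SUN-like protein 31 (Solyc11g071840), whose identifier falls between those of YABBY2 and CSR, stood at 8.33 to 13.9 TPM in all 6 libraries.

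As a check of the labelled tissue, the fruit identity gene TAGL1 (Solyc07g055920) stood at 164 to 241 TPM in every library. Between 17352 and 18693 gene models reached 1 TPM per library, the fewest in knockout 3. The summed level of 39 chlorophyll-binding and RuBisCO small subunit genes was 597 to 2981 TPM for wild type, highest in library 1, and 1175 to 2222 TPM for the knockout.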

How the data were processed

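The authors deposited 1 table of transcript levels per gene model, with 3 wild-type and 3 knockout columns. Per the submitters' processing notes TopHat2, HISAT2, StringTie and Cufflinks were used, without roles or versions, and the genome build is not given in the sources used here. The unit of the deposited values was taken as TPM, a share of transcripts scaled to gene length, because each column sums to between 987932 and 994646. Read depth is unknown, so no counting interval is given.

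Genes that reached 1 TPM in 3 or more of the 6 libraries were tested on log2(TPM + 1) with limma 3.58.1 (R 4.3.3, mean-variance trend, no covariate), adjusted by Benjamini-Hochberg over all 18368 genes and called at 0.05. Fold changes on this scale understate those of low genes. For a single gene, an exact permutation test of 3 against 3 libraries cannot go below p = 0.1. The labels speak of biological replicates without saying whether they are separate plants, so each p-value reflects only the spread among them, which may be technical. The step was tested on simulated data.

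Members, relatives and markers were chosen with earlier results of these data known. Relatives were matched by description, after 1 unnamed CLAVATA entry, 7 tRNA methyltransferase entries, 64 inhibitor or lipid-transfer entries of the seed list and 3 entries of the dividing tissue list had been dropped. CLE9 (Solyc06g074060), planned for the CLAVATA and WUSCHEL list, is not among the genes described. Named relatives are the 3 with the highest mean and the 3 with the lowest unadjusted p of each family. Ovate family protein 20, the LONGIFOLIA genes, ENO and SUN-like proteins 12 and 31 were added after their values were seen. Of 5 fruit identifiers 1 was not found. Alternatives were median-ratio scaling, other filters, a pseudocount of 0.1, robust limma and leaving out libraries. No sequence was used here.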

Additional observations from a re-analysis of the deposited data

How the results depend on the processing

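Of the 11 alternatives each for OVATE and SUN and the 12 for YABBY2, 0 passed the test and 1 changed sign. That was OVATE at −0.073 without knockout 3, and leaving out 1 library at a time moved OVATE between −0.073 and 0.96, SUN between −0.85 and −0.16 and YABBY2 between 0.24 and 0.97 (log2 fold change). Over all alternatives the limma adjusted p ran from 0.528 to 0.927 for OVATE, 0.358 to 0.913 for SUN and 0.312 to 0.983 for YABBY2. The count of genes called was 17 as reported, 27 after median-ratio scaling, 0 with no filter on low values (3699 genes had an unadjusted p under 0.05), 0 without both seed-rich libraries (1626 such genes) and 0 to 23 on leaving out 1 library. With at least 5 TPM in 3 libraries OVATE and SUN were not tested. Over the 12 alternatives the median of the FW2.2-like family ran from −0.40 to −0.23 and that of the SUN family from −0.39 to −0.023. The YABBY family ran from −0.52 to −0.033, the TRM family from −0.59 to 0.042 and the CSR relatives from 0.15 to 1.26. The medians of the CLAVATA and WUSCHEL genes and of the OVATE family were 0.33 and 0.47 in the main fit. They changed sign with no filter, to −0.14 and −0.071, and without both seed-rich libraries the OVATE family stood at 0.11. The cause was not tested. No paired analysis was possible because the column numbers are not tied to sample titles. The unknown depth limits what a value of 0 can show for WUS, CLV3, CSR, FW2.2 and KLUH.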
